A study of Mus musculus with 3 samples.

Results

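The genes described here are the Hedgehog ligands, their receptors and the Gli transcription factors, in cultures labelled as purified interneurons of the medial ganglionic eminence (MGE), a ventral forebrain structure of the embryo in which many cortical and striatal GABA neurons are born. The 9 members are Shh, Ihh, Dhh, Ptch1, Smo, Gli1, Gli2, Gli3 and Hhip. They are taken by symbol, with earlier results of these data known, out of 22180 genes with a probe set of their own, and each had exactly 1 such probe set. The series has 3 biological replicate cultures of wild-type CD-1 mouse embryos (strain CD-1, genotype WT) taken at embryonic day 13, and they form 1 group. MGE cells were grown on laminin and poly-D-lysine in Neurobasal medium with B27, glutamine and FGF2 at 40 ng/ml. AraC, a nucleoside analogue that kills cells in DNA synthesis, was given at 1 µM for 24 h from day 5, and RNA was taken after a further 2 days without it. No Hedgehog protein, agonist or antagonist is named among the additions. Whether each culture pooled several embryos is not given in the sources used here.

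Hedgehog proteins are secreted, lipid-modified signals. In their absence Ptch1 holds back Smo, a membrane protein that works at the primary cilium, and Gli3 and in part Gli2 are cut into repressors. When a ligand binds Ptch1, Smo is released and full-length Gli proteins switch on target genes, among them Gli1, Ptch1 and Hhip themselves. In the ventral forebrain Shh is known for maintaining Nkx2-1 and the identity of MGE progenitors.

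The values are log2 signals of a 1-colour array, 1 array per culture, and are given for cultures 1, 2 and 3 in that order. A gene was called above background when the mean of the 3 cultures exceeded 6.26 by a 1-sided limma test with a Benjamini-Hochberg adjusted p under 0.05 over all 22081 probe sets tested. The line of 6.26 is the 95th percentile of the means of 1440 background probe sets, which belong to receptor genes of smell, the vomeronasal organ and bitter taste and had a median of 4.37. Of the 9 members 7 were called, against 63.4% of all 20751 genes tested, and 5 were called with a margin of 1 log2 unit above the line, against 47.6% of all genes. The members' share of 77.8% is thus near the share of all genes, and it is not a result about the pathway. Their median level was 7.89, beside 7.34 for all genes tested. The series has no other condition to set these cultures against. Because hybridization strength depends on the probes, levels of members are compared between cultures within a gene and not between genes. The call itself sets each probe set against probe sets of other genes. Differences in probe strength therefore enter every call, and also the counts of background probe sets with a higher mean. The median level of a list is given beside that of all genes only as a description. With 3 arrays the precision is limited by their number. A p value weighs the distance of the mean from the line against the spread between cultures, moderated over all probe sets. The line is taken as fixed, so the spread among background probe sets does not enter the p value. The plot of members by culture shows every value against the line.

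**Figure D1:**
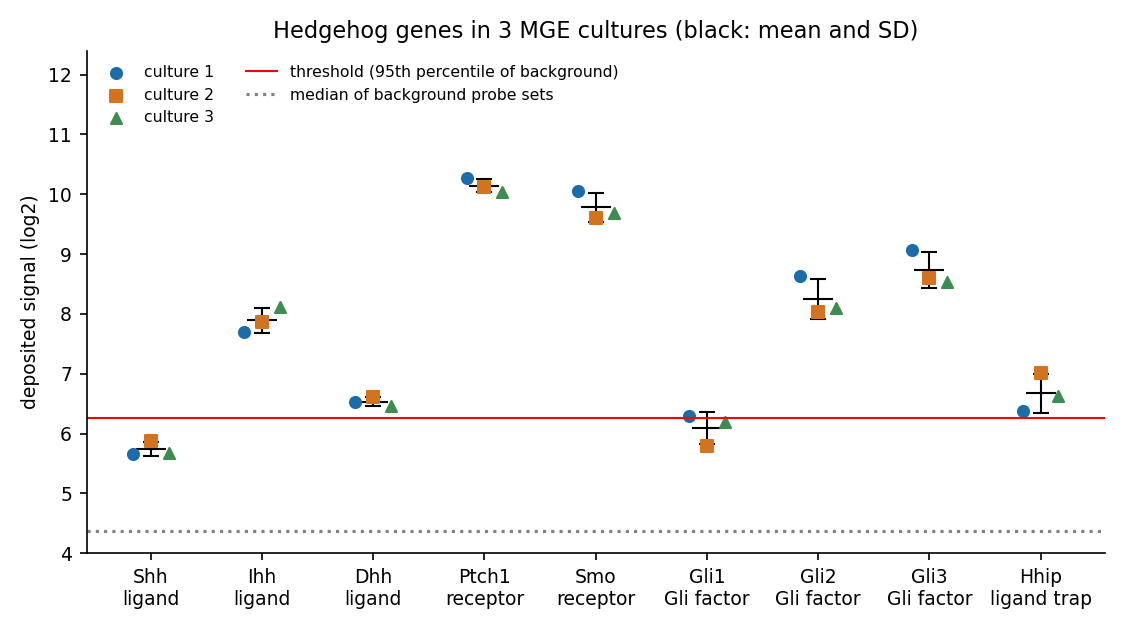
Deposited log2 signal (vertical axis) of each of the 9 members (horizontal axis, with its role) in cultures 1, 2 and 3 (coloured points), with the mean and SD in black, n = 3. The red line is the threshold of 6.26 and the dotted line the background median of 4.37. Shh lies below the red line in all 3 cultures, Gli1 in 2 of 3, and Ptch1, Smo, Gli2, Gli3 and Ihh lie more than 1 log2 unit above it.

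Of the ligands, Ihh and Dhh gave signal above background and Shh did not by its own probe set. Shh, the ligand known from the ventral forebrain, read 5.66, 5.88 and 5.67 (mean 5.74 ± 0.12, SD, n = 3). All 3 cultures lay below the line, and the mean was -0.52 from it (95% interval of the moderated fit -0.71 to -0.33, limma adjusted p = 1.00). Of the 1440 background probe sets 164 had a higher mean than Shh. An array signal at this level gives no measure of how much Shh mRNA was present, and a transcript below what the probes detect would read the same.

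A further probe set carries both the symbol Shh and that of 9530036O11Rik, a long noncoding RNA gene whose span overlaps that of Shh in RefSeq. It stands outside the 9 members because its signal cannot be assigned to either gene. It read 7.26, 7.39 and 7.21 (mean 7.29 ± 0.091, SD, n = 3), above the line in all 3 cultures. Tested together with the others, its mean exceeded the line by 1.03 (95% interval 0.86 to 1.19, limma adjusted p = 6.61e-05). The statement on Shh therefore rests on 1 probe set, and the call would change if this second one were counted as Shh.

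Ihh, the ligand best known from growing cartilage and gut, read 7.70, 7.86 and 8.12 (mean 7.89 ± 0.21, SD, n = 3). Culture 3 was highest and culture 1 lowest, and all 3 were above the line. The mean exceeded it by 1.63 (95% interval 1.36 to 1.90, limma adjusted p = 7.21e-05), and the call was kept with the margin of 1 (limma adjusted p = 0.00333). Dhh, the ligand known from Schwann cells and testis, read 6.52, 6.61 and 6.47 (mean 6.53 ± 0.073, SD, n = 3). The cultures were close together and all a little above the line, by 0.27 in the mean (95% interval 0.12 to 0.43, limma adjusted p = 0.00666). With a margin of 1 Dhh was not called, and 49 background probe sets had a higher mean.

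Hhip, a membrane-bound protein that traps ligand, is both an inhibitor and a target of the pathway. It read 6.37, 7.02 and 6.63 (mean 6.68 ± 0.32, SD, n = 3), with culture 2 highest and culture 1 lowest. The mean exceeded the line by 0.41 (95% interval 0.034 to 0.80, limma adjusted p = 0.0315). That call was not stable when 1 culture was left out, with the line taken anew from the cultures kept. Without culture 1 it was kept (limma adjusted p = 0.0256). It was lost without culture 2 (limma adjusted p = 0.182) and without culture 3 (0.114). Without culture 2 the mean lay 0.16 above a line of 6.35. Without culture 3 it lay 0.44 above a line of 6.25, so there the distance did not shrink. With the margin of 1 Hhip was not called either.

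Both receptor genes were well above background in every culture. Ptch1, which binds ligand and restrains Smo, read 10.27, 10.13 and 10.04 (mean 10.15 ± 0.11, SD, n = 3). The 3 cultures lay within 0.22 of each other, and the mean exceeded the line by 3.89 (95% interval 3.70 to 4.07, limma adjusted p = 1.67e-06). Smo, the membrane protein that passes the signal into the cell, read 10.06, 9.61 and 9.68 (mean 9.78 ± 0.24, SD, n = 3). Culture 1 was highest, and cultures 2 and 3 differed by 0.075. The mean of Smo exceeded the line by 3.52 (95% interval 3.22 to 3.82, limma adjusted p = 7.08e-06). With the margin of 1 both stayed called, at limma adjusted p = 6.25e-06 for Ptch1 and 3.34e-05 for Smo.

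The Gli factors divided between Gli2 and Gli3, which were called, and Gli1, which was not. Gli1, an activator that is itself switched on by the pathway and serves as its usual transcriptional readout, read 6.29, 5.78 and 6.19 (mean 6.09 ± 0.27, SD, n = 3). Culture 1 was at the line and the other 2 cultures were below it. The mean was -0.17 from the line, with a 95% interval of -0.50 to 0.15 that includes it (limma adjusted p = 1.00). At a line set at the 90th percentile of background the mean was 0.27 above, with a limma adjusted p of 0.0586. Ptch1 and Hhip, the other members that the pathway induces, were thus called where Gli1 was not, Hhip by a small margin. Whether the 3 genes differ in level cannot be read from these probe sets.

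Gli2, the main activator of the family, read 8.63, 8.03 and 8.09 (mean 8.25 ± 0.33, SD, n = 3). Its mean exceeded the line by 1.99 (95% interval 1.60 to 2.38, limma adjusted p = 0.000129). Gli3, the main repressor and a regulator of dorsal forebrain identity, read 9.07, 8.60 and 8.53 (mean 8.73 ± 0.29, SD, n = 3). Its mean exceeded the line by 2.47 (95% interval 2.12 to 2.82, limma adjusted p = 4.02e-05). For both, culture 1 was highest and cultures 2 and 3 were close, and both stayed called with the margin of 1 (limma adjusted p = 0.00237 for Gli2 and 0.000375 for Gli3). The array measures mRNA, so the share of Gli2 and Gli3 protein that is cut into repressor was not measured.

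Several members varied more between cultures than the median gene did. The members' median SD was 0.24, beside 0.13 over all genes tested, and 6 of the 9 had an SD above that of the median gene. Of all genes called above background, 93.8% had a smaller SD than Gli2, 93.4% a smaller one than Hhip, 91.4% than Gli3 and 85.3% than Smo, but 47.7% than Ptch1 and 26.6% than Dhh. These figures are a description of 3 cultures and carry no test.

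Of the 7 members called, 4 were highest in culture 1, namely Ptch1, Smo, Gli2 and Gli3. Of all 13155 genes called, 31.1% were highest in culture 1. Against the mean of cultures 2 and 3, culture 1 was higher by 0.57 for Gli2, 0.50 for Gli3, 0.41 for Smo and 0.18 for Ptch1. The gap between cultures 2 and 3 was 0.060, 0.075, 0.075 and 0.086 for the same genes. Gli1, not called, was also highest in culture 1, but its cultures 2 and 3 differed by 0.40. The ligand genes and Hhip ran otherwise. Hhip and Dhh were highest in culture 2 and Ihh in culture 3, and Hhip was -0.45 in culture 1 against the mean of the other 2. Each member's highest and lowest culture stayed the same after quantile normalization and after median centring. The sizes shifted. For Ptch1 the excess of culture 1 and the gap between cultures 2 and 3 were 0.20 and 0.049 after quantile normalization. After median centring they were 0.15 and 0.13. With 1 array per culture these differences have no test.

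Markers of other cell types differed between the same cultures. Of the markers called, 8 of 8 astrocyte genes, 7 of 7 radial glia genes, 5 of 6 oligodendrocyte lineage genes and 7 of 8 genes of dividing cells were highest in culture 1, against 1 of 8 neuronal genes. These counts were the same after quantile normalization, and after median centring they became 6 of 8 for dividing cells and 0 of 8 for neurons. The share of all genes called that were highest in culture 1 was 34.4% and 24.6% after these scalings. The median difference from the gene's own mean in culture 1 was 0.40 for astrocyte genes, 0.24 for radial glia genes, 0.25 for oligodendrocyte lineage genes and 0.17 for genes of dividing cells, and -0.20 for neuronal genes. The median log2 level of the astrocyte markers was 8.74, 7.79 and 8.34 in cultures 1, 2 and 3, and that of the neuronal markers was 11.03, 11.26 and 11.26. Their part in the values of Smo, Gli2, Gli3 and Ptch1 was not tested. In RNA of whole cultures, fewer cells of a type and less RNA per cell cannot be told apart. The plot of differences from the mean sets members and marker lists side by side.

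**Figure D2:**
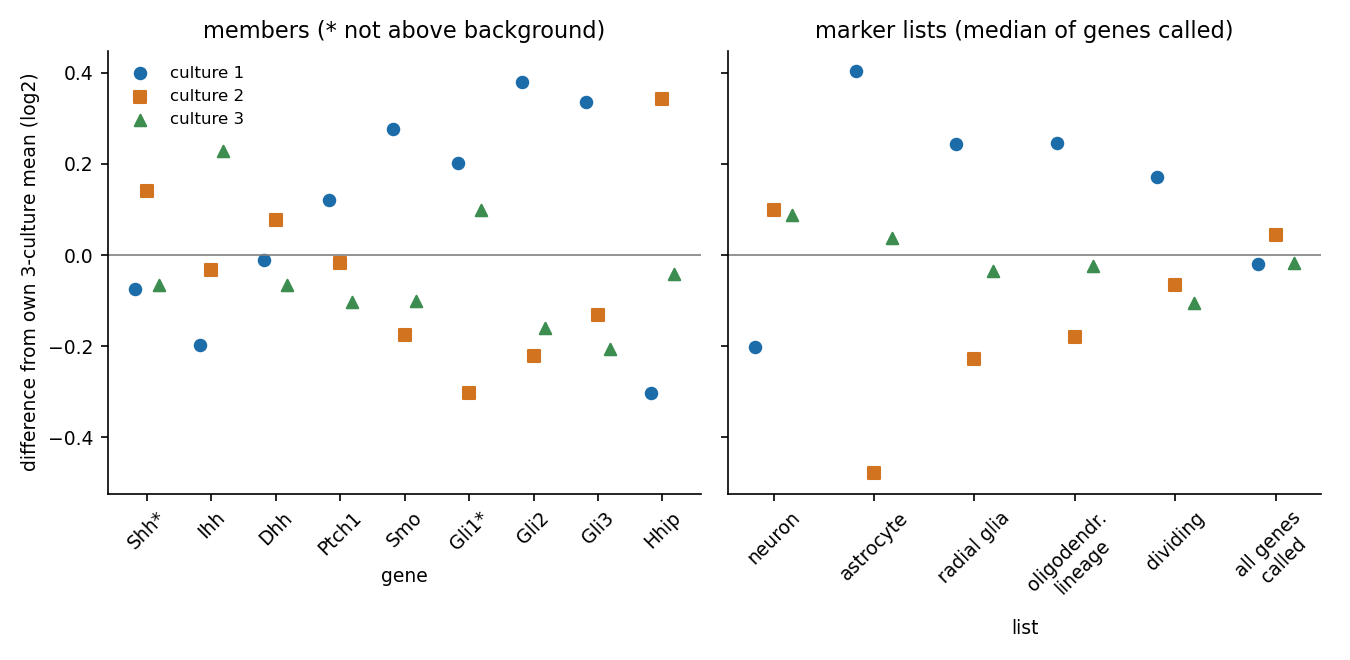
Difference of each culture from the gene's own 3-culture mean, in log2 units (vertical axis). The left panel shows the 9 members, and the right panel the median over the called genes of 5 marker lists and of all genes called, with 1 coloured point per culture. Culture 1 is the highest point for Ptch1, Smo, Gli1, Gli2 and Gli3 and for the astrocyte, radial glia, oligodendrocyte lineage and dividing lists, and the lowest for the neuronal list.

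Markers of the labelled cell type were called, and so were markers of other cell types. All 8 neuronal and GABA neuron markers were called (8 with the margin of 1), and so were 8 of 9 astrocyte markers (7), 7 of 7 of radial glia (6), 6 of 7 of the oligodendrocyte lineage (6) and 8 of 8 of dividing cells (7). Of the cell types known to make Hedgehog ligands elsewhere, the Schwann cell list had 4 of 5 markers called (0 with the margin), the endothelial list 6 of 8 (0) and the floor plate list 4 of 6 (2). Of the choroid plexus list 2 of 6 were called (1), of the meningeal list 3 of 6 (0), of the microglial list 3 of 6 (0) and of the cortical glutamatergic list 1 of 6 (0). These counts stand beside 63.4% of all genes called, 47.6% with the margin. At the main line the Schwann cell (80%), endothelial (75%) and floor plate (66.7%) lists were not far from the share of all genes. With the margin the first 2 of these lists had 0 called and the floor plate list 2 of 6, below that share. The calls at the main line thus say little about such cells being present. Which cells gave the signal of any member cannot be told from these arrays.

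The pattern over cultures that came nearest to that of Gli2, the called member with the largest SD, was that of Gulp1, Timp3 and Zfp932. The distance between the centred log2 values over 3 cultures was 0.0030, 0.011 and 0.018, out of 13154 genes searched. Gulp1, for example, read 8.89, 8.28 and 8.35. With 3 cultures so many genes offer close matches that the likeness carries no test.

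Beyond the members, 77 of 83 other genes of the pathway had a probe set of their own. Of these, 72 (93.5%) were called above background, 53 with the margin of 1, beside 63.4% and 47.6% of all genes. The lists differed. With the margin, 21 of 24 relay and 11 of 13 cilium genes were called. For ligand release, co-receptors, targets and Gli relatives it was 4 of 6, 5 of 7, 10 of 20 and 2 of 7. The lists were chosen with earlier results known, so the pooled share is not a result about the pathway. Their median level was 8.33, beside 7.34 for all genes. Of the genes that process and release ligand, 5 of 6 were called. Disp1, the transporter that releases lipid-bound ligand, averaged 7.97 ± 0.043 (SD, n = 3), and its relative Disp2 averaged 9.76 ± 0.23 (SD, n = 3). The secreted carriers Scube1 (7.79 ± 0.12), Scube2 (6.96 ± 0.10) and Scube3 (8.55 ± 0.11) were called, Scube2 not with the margin. Hhat, the enzyme that attaches palmitate to the ligands, was not called at 6.40, 6.56 and 6.20, with 2 of 3 cultures above the line (limma adjusted p = 0.181).

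All 7 measured co-receptors and binding proteins were called, 5 of them with the margin, against 63.4% and 47.6% of all genes. Cdon read 9.02, 9.06 and 8.71, and its relative Boc 8.24, 7.87 and 7.77. Gas1, the third of the co-receptors that present Shh to Ptch1, read 8.42, 8.37 and 8.23. Lrp2, an endocytic receptor that takes up Shh in the forebrain, read 7.78, 7.62 and 7.07 (mean 7.49 ± 0.37, SD, n = 3). In the deposited values Boc, Gas1 and Lrp2 were highest in culture 1, as were Smo, Gli2 and Gli3, whereas Cdon was highest in culture 2. This order depended on scaling. Of the 7 called, 4 were highest in culture 1 as deposited, 5 after quantile normalization and 2 after median centring. The shares of all genes called were 31.1%, 34.4% and 24.6%.

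The genes that relay the signal inside the cell were all called, 24 of 24 measured and 21 with the margin. For this list and the cilium list the shares of all genes to set beside are 63.4% and 47.6%. Sufu, which binds Gli proteins and holds them back, read 9.64, 9.38 and 9.25. Kif7, a kinesin of the ciliary tip that acts on Gli proteins, read 7.21, 7.04 and 7.22, and only 1 of its 2 probe sets was called. Gpr161, a ciliary receptor that favours Gli3 processing, averaged 8.50 ± 0.062 (SD, n = 3), and the kinases Gsk3b and Prkaca, which mark Gli proteins for processing, averaged 11.65 ± 0.081 and 11.18 ± 0.15. Stk36 averaged 7.80 ± 0.027. The median SD of this list was 0.097. Of the cilium genes, 13 of 13 measured were called (11 with the margin), with Ift88, a transport protein without which cilia do not form, at 8.19, 8.40 and 8.31 and Kif3a, a motor of ciliary transport, at 9.74, 9.90 and 9.92. Arl13b had no probe set under its name.

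Of 20 genes known as Hedgehog or Gli targets in one tissue or another, 17 were called, 10 with the margin. Among all genes 63.4% and 47.6% were, so with the margin the targets are near the general share. Nkx2-1, the transcription factor that defines the MGE, read 9.06, 9.34 and 9.07. Nkx6-2, known as a Shh-dependent gene of the dorsal MGE, read 7.14, 6.81 and 7.08 (limma adjusted p = 0.000734) and was not called with the margin. Nkx2-2, a ventral patterning factor also used by oligodendrocyte precursors, read 9.50, 8.54 and 9.15 and was lowest in culture 2. Olig2, shared by MGE progenitors and the oligodendrocyte lineage, averaged 11.24 ± 0.13 (SD, n = 3), and Ccnd1, the cyclin D1 gene, 11.10 ± 0.21. Foxa2, the floor plate factor, was near the line at 6.72, 6.42 and 6.62 (limma adjusted p = 0.0116), and without culture 3 it was not called (0.0719). The 3 not called were Foxf2 (5.79 ± 0.17), Nkx6-1 (6.01 ± 0.070) and Mycn, a growth regulator, which read 6.21, 6.77 and 6.49 (limma adjusted p = 0.101) and was called without culture 1 (0.0323). Most of these genes answer to other signals as well, so the count is no measure of Hedgehog activity.

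Of the zinc finger genes related to the Gli family, 6 of 7 measured were called, 2 with the margin. Over all genes these shares were 63.4% and 47.6%. Zic1 read 9.69, 9.92 and 9.17, and Glis3 7.62, 7.48 and 7.23. Zic4, at 6.74, 6.62 and 6.26, just missed the test (limma adjusted p = 0.0519). Its adjusted p was 0.0455 after quantile normalization, 0.0352 after median centring, 0.0494 with dim probe sets left out and 0.0156 without culture 3.

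**Figure D3:**
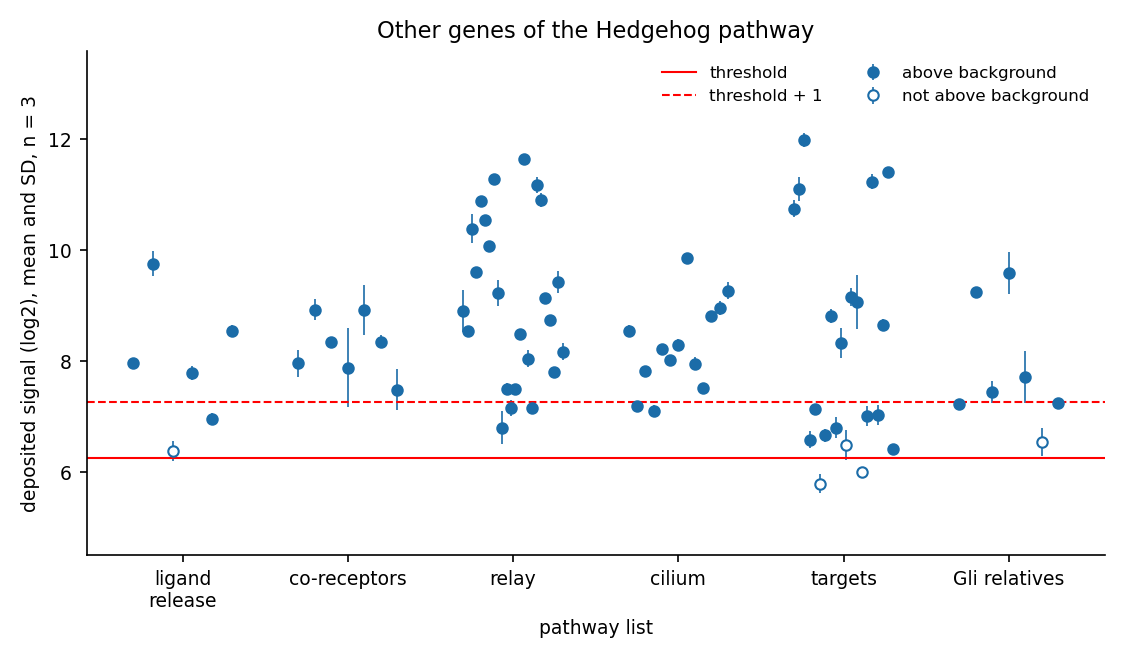
Mean deposited log2 signal with SD, n = 3 (vertical axis), of each measured gene in 6 lists of the Hedgehog pathway (horizontal axis). Filled points were called above background and open points were not. All genes of the co-receptor, relay and cilium lists are filled, and the 5 open points are Hhat, Foxf2, Mycn, Nkx6-1 and Zic4.

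Promoter sequence of RefSeq (GRCm38.p6) was found for 7 of the 9 members, all but Shh and Gli1. Each window holds 250 bases before and 50 after the annotated start. The Gli binding sequence GACCACCCA, searched on both strands, was in 0 of these 7 windows and in 0.253% of all 32851 windows. Its inner 7 letters, ACCACCC, which are part of the longer sequence, were in 1 of the 7, that of Gli2, and in 4.61% of all windows. No match says only that these letters are not in these windows. The windows of the members were rich in G and C, from 61.7% to 76.3%, beside a median of 52.7% for all windows. The 250 bases before the start are printed for Ptch1 and Hhip, the called members that the pathway is known to induce. They are also printed for Gli2, whose window holds the 7 letters on the opposite strand. The reverse complement of these letters, GGGTGGT, is in capitals on the strand shown. The start used lies inside the outer end of the gene, by 7725 bases for Ptch1, 786 for Gli2 and 52 for Hhip. The printed bases lie at chr13:63565736-63565985 for Ptch1, chr8:80058009-80058258 for Hhip and chr1:119053620-119053869 for Gli2, all on the minus strand.
Ptch1: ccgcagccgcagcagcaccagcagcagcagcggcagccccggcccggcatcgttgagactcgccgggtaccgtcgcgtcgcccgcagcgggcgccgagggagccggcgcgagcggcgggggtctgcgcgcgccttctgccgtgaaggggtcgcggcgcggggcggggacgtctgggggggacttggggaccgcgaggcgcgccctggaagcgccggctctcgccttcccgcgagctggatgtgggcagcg
Hhip: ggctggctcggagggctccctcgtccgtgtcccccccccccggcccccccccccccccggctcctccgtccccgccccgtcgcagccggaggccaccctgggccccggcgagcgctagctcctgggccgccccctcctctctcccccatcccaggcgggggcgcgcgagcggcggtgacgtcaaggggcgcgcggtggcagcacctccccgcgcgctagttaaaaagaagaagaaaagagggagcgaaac
Gli2: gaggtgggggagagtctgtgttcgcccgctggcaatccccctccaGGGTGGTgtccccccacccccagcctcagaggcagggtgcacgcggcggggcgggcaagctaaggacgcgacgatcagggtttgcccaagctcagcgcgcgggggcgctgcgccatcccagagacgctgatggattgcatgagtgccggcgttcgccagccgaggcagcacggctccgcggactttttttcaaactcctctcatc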

How the data were processed

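Per the labels' protocols, biotinylated cDNA from 100 ng of total RNA was hybridized to a 1-colour Affymetrix array. The deposited values are 1 log2 signal per probe set and culture, made by the authors with oligo and RMA per the submitters' processing notes. Their versions and settings, and a genome build, are not stated there. The medians of cultures 1, 2 and 3 were 6.57, 6.52 and 6.56, and Pearson's r across probe sets was 0.983 to 0.991. Of 41345 probe sets 23521 carry 1 gene symbol in the platform table (1814 several, 16010 none), and only those were used. Identifiers of 23328 were in RefSeq (GRCm38.p6).

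limma 3.58.1 in R 4.3.3 tested an intercept, with 2.13 prior degrees of freedom. A gene with several probe sets was called on any one of them and is given by the one with the highest mean. Of 8 pathway genes with several probe sets, 5 had sets that disagreed in the call (Bcl2, Dyrk2, Kif7, Tmem67 and Zic5). The sets of Sufu (means 9.43 and 6.58), Scube3 (8.55 and 6.67) and Prkaca (11.18 and 7.46) were all called but differed in level. The members and lists were chosen with earlier results of these data known. Named were all members, lead genes of each list (1 lead gene is not reported here), and members of lists with 5 or fewer called or not called. Alternatives were other lines, scalings, filters and leaving out each culture.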

Additional observations from a re-analysis of the deposited data

Results flagged for a closer look

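The probe set that carries both Shh and 9530036O11Rik lies outside the genes tested, since it has 2 symbols, and gave a mean of 7.29 log2 units, above the level of the background receptors. Of the 1440 background probe sets 11 had a higher mean. The probe set of Shh alone averaged 5.74. Which of the 2 genes gave the signal was not tested.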

How the results depend on the processing

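Of the 9 members, Ihh, Ptch1, Smo, Gli2 and Gli3 stayed called and Shh and Gli1 not called under all 13 alternatives. Including the probe set with 2 symbols, an alternative chosen after seeing the data, put Shh 1.03 above the line (8 members called). It was tried at the main line only. Its mean of 7.29 (cultures 7.26, 7.39 and 7.21) is close to the lines of 7.23 from other background families and 7.26 with the margin. Without 1 culture, and with the line taken anew from the cultures kept (6.21 to 6.35), 6 to 7 members were called. Dim probe sets left out, the mean of probe sets, an intensity trend and every culture above the line with no test changed no member. The stricter lines are higher by construction and lost calls near the line. Lrp2 (adjusted p 0.0665 at the 99th percentile, 0.183 with other background families, 0.226 with the margin), Kif7 (0.406 at the 99th percentile) and Glis3 (0.0945 with other families, 0.132 with the margin) stayed above these lines but were no longer called. Hhat, Mycn and Zic4, listed next, were not called at the main line either. At the 99th percentile (7.10) the distance from the line was -0.56 for Dhh, -0.42 for Hhip, -0.71 for Hhat, -0.14 for Scube2, -0.61 for Mycn, -0.51 for Foxa2, -0.087 for Nkx6-2 and -0.56 for Zic4, with 10 targets and 39 cell type markers called. With other background families (7.23) it was -0.70 for Dhh, -0.56 for Hhip, -0.85 for Hhat, -0.28 for Scube2, -0.077 for Kif7, -0.74 for Mycn, -0.65 for Foxa2, -0.22 for Nkx6-2 and -0.69 for Zic4, while 1 log2 unit above the main line it was -0.73, -0.59, -0.88, -0.30, -0.10, -0.77, -0.67, -0.25 and -0.72 for the same genes. With both, 10 targets, 2 Gli relatives and 37 cell type markers were called. At the 90th percentile (5.82) Gli1 lay 0.27 and Nkx6-1 0.18 above the line, the latter called (adjusted p 0.0203), and Hhat (0.00212), Mycn (0.00356) and Zic4 (0.00205) became called too. Hhat lay between -0.051 and 0.22 from the line when 1 culture was left out. No paired analysis was possible because the series has 1 group. The number of arrays and the closeness of Dhh, Hhip and Gli1 to background limit what can be said of them.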
